A study of Mus musculus with 6 samples.

Results

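SOX10+ cells sorted from the trunk of E9.5 mouse embryos were compared with whole embryos of the same stage on 4 of the 6 arrays of the series. The members were taken from the sample titles: 2 arrays of SOX10+ cells and 2 arrays of whole embryo, while the other 2 arrays held SOX1+ cells. The SOX10+ cells were Venus-positive trunk cells of Sox10-IRES-Venus embryos on a C57BL6/129Sv hybrid background, in which the fluorescent protein Venus is knocked in behind the stop codon of Sox10, so that Venus marks cells that transcribe this gene or have recently done so. Whole embryos were minced and carried Sox1-Cre/Floxed-YFP on a C57BL6/CBA hybrid background. The SOX1+ cells were YFP-positive trunk cells of that same genotype, in which Cre driven by Sox1 switches on YFP for good, so YFP also stays in descendants of cells that once used Sox1. All embryos were of 9.5 dpc and of mixed sex. No group carried a treatment. RNA of the SOX10+ sorts was combined and hybridised on 2 arrays, and these were therefore averaged to 1 sample. Fewer SOX10+ than SOX1+ cells were collected, heads were discarded before the sorts, and RNA was linearly amplified during labelling. Every array carried sample RNA in Cy3 and the same reference RNA in Cy5, a pool of mouse cell lines mixed with embryonic stem cell RNA, and no dyes were swapped. A level below is the log2 ratio of Cy3 over Cy5, and a log2 fold change is the SOX10+ level minus the whole-embryo level.

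Neural crest cells (NC cells) form at the border of the neural plate, leave the dorsal neural tube through an epithelial-to-mesenchymal transition and migrate through the embryo. In the trunk they give rise to neurons and glia of the peripheral nervous system and to melanocytes. SOX10 is a SoxE transcription factor that marks migrating NC cells and is needed in glia and melanocytes. A whole embryo at this stage holds many further tissues, among them heart, blood, gut endoderm, somites, surface ectoderm and brain, besides a small part of NC cells. The comparison therefore asks which transcripts stand out in trunk NC cells against the mixture of all tissues. In bulk RNA of this kind, fewer cells of a type and less RNA per cell cannot be told apart. Sorted cells and whole embryos also differed in genotype, in strain, in body region and in whether cells were dissociated and sorted. The sorted cells lay on 1 slide and the whole embryos on another, so slide and group cannot be told apart.

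The array files name probes but no genes, and each probe of 60 bases is known by its sequence. The probe sequences printed here are those with the largest changes, because the sequence is what identifies them. Of the probes called in each direction that were well above background on all 4 arrays, with the SOX10+ arrays both beyond both whole-embryo arrays, the first 2 by size of change were taken. They are written 5′ to 3′ in lower case, as the array design gives them, and capitals mark AATAAA, the hexamer that directs cleavage and polyadenylation near the end of most messenger RNAs. Higher in SOX10+ cells were
Z00061714-1: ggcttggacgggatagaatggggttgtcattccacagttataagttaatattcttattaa
Z00026317-1: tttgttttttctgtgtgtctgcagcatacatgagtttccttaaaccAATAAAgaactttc
and lower in SOX10+ cells were
Z00064743-1: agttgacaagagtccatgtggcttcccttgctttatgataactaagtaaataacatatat
Z00023449-1: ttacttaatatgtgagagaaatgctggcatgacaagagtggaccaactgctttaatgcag
Only the second of these 4 probes holds AATAAA.

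Genes could be named for a small part of the probes, by matching them base for base to windows of 300 bases around the start sites of RefSeq genes (GRCm38.p6) and asking which gene's range covers the match on the same strand. Of 41968 probes, 287 were named in this way, for 280 genes, and 166 of them were tested. A probe that lies in a gene's range is not thereby known to be exonic, since the tables used here hold gene ranges without exons. Of Sox10, Sox9, Foxd3, Tfap2a, Snai2, Ets1, Erbb3, Ednrb, Ngfr, Sox1 and Sox2, none had a named probe, so the label of the sorted cells was not checked against its defining markers here. The 4 named probes that were called are given by the first 30 bases of their match to the genome.
Podxl2, chr6:88842770-88842799, minus strand: tcggacgtgttcgaggaggacactcacctg
H2ac18, chr3:96245512-96245541, plus strand: aaagagtgaggcgtcggcgccggagtaccg
Bcl11a, chr11:24172868-24172897, plus strand: ttgtgatgttttctgacagtagcctccaag
Plet1, chr9:50505002-50505031, plus strand: ctactagcagatttccactgtgcccagacc

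SOX10+ cells differed from whole embryos more often by a lower than by a higher level. Of 27048 tested probes, 587 (2.17%) were higher in SOX10+ cells and 1446 (5.35%) were lower, at an adjusted p under 0.05 by limma with Benjamini-Hochberg adjustment and more than 2-fold. Probes were tested where they were well above background in Cy3 on both arrays of SOX10+ cells, of whole embryos or of both. Higher probes thus made up 28.9% of the calls. With the arrays centred on their medians in place of loess, the counts were 282 higher and 2801 lower and that share was 9.15%. The median log2 fold change over the tested probes was 0.01 with loess and -0.25 with median centring, and changes under the latter are to be read against that shift. The whole-embryo arrays were also brighter, with median unnormalised Cy3 signals of 204 and 196 against 126 and 133 on the SOX10+ arrays. Of all probes, 66.6 and 64.2% were well above background in Cy3 on the whole-embryo arrays and 62.1 and 62.9% on the SOX10+ arrays. The part of this in the counts was not tested. At an adjusted p under 0.05 whatever the fold, limma gave 2220 higher and 3108 lower probes.

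**Figure D1:**
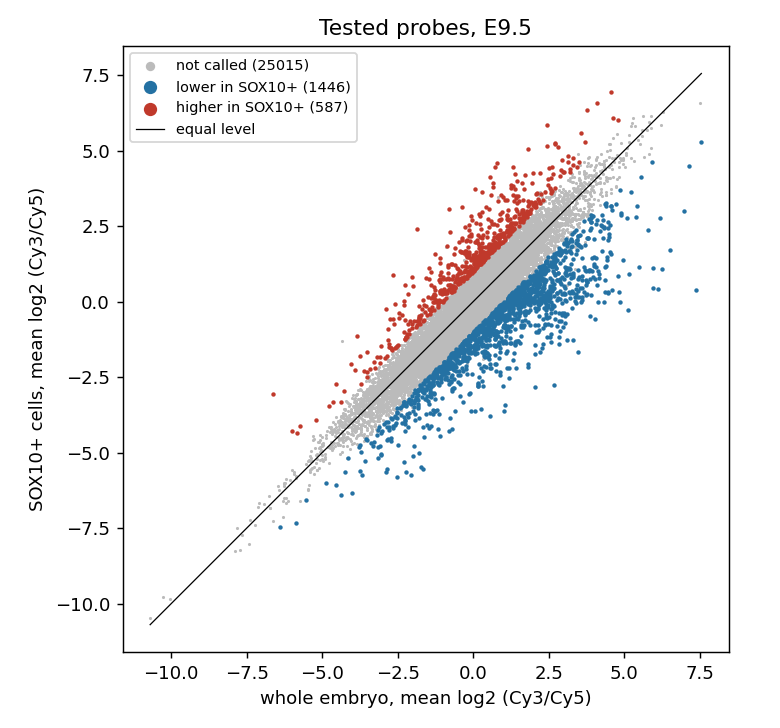
Mean log2 ratio of sample (Cy3) over reference (Cy5) in SOX10+ cells (y axis) against whole embryos (x axis) for each tested probe, as the mean of 2 arrays, with the line of equal level. The 587 higher probes (red) and 1446 lower probes (blue) flank the 25015 probes that were not called (grey), and the lower ones reach farther from the line.

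The lower probes also changed by more. The median change was 2.47-fold among the higher and 2.77-fold among the lower probes. More than 4-fold were 100 of the higher probes (17%) and 390 of the lower probes (27%). More than 8-fold were 16 higher and 131 lower probes, and more than 16-fold 1 higher and 29 lower probes. The extremes were a log2 fold change of 4.26 upwards and of -6.98 downwards. These values describe the calls and carry no test of their own.

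The called probes were chosen by their difference on these same arrays, so a separation of the arrays at them largely follows from the choice. Among the higher probes (2.17% of the tested probes), both SOX10+ arrays lay above both whole-embryo arrays at 586 of 587. Among the lower probes, all 1446 (5.35% of the tested probes) had both SOX10+ arrays below both whole-embryo arrays. Such separation was common whatever the call. Of all 27048 tested probes, 10702 had both SOX10+ arrays above both whole-embryo arrays and 10266 had both below. Between the duplicate SOX10+ arrays the median difference in level was 0.09 at the higher probes and 0.10 at the lower probes, and between the duplicate whole-embryo arrays it was 0.17 and 0.19. Since the SOX10+ arrays shared 1 RNA, their closeness measures hybridisation and not the spread between embryos.

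Z00061714-1 had the largest called rise among probes above background on all 4 arrays. Its level was 4.59 and 4.62 on the SOX10+ arrays, 0.93 and 0.64 on the whole-embryo arrays, and 0.77 and 1.04 on the SOX1+ arrays. The SOX10+ arrays stood alone, and SOX1+ cells were at the whole-embryo level. The log2 fold change was 3.82 ± 0.19 (SE), 14.1-fold, with an adjusted p of 0.000255 by limma. Its reference signal was well above background on 0 of these 4 arrays, and with Cy3 alone the log2 fold change was 3.75. Cy3 alone means Cy3 after loess and Aquantile normalisation. Aquantile equalises the distribution of the average log signal of both dyes across arrays, so these levels are not free of Cy5. The unnormalised Cy3 signals were 1170 and 1350 in SOX10+ cells and 176 and 137 in whole embryos. The log2 fold change was 5.54 from the scanner's processed signals and 3.21 with median centring, so its size depends on the processing. Against SOX1+ cells it was 3.70 ± 0.19 (SE), also a call (adjusted p = 0.000358 by limma). In that comparison 3.7% of 26018 tested probes were higher and 3.11% were lower, and it shares the SOX10+ arrays with the comparison against whole embryos.

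Z00026317-1 followed, with levels of 4.50 and 4.44 in SOX10+ cells, 0.98 and 0.49 in whole embryos, and 1.82 and 1.49 in SOX1+ cells. Here SOX1+ cells lay above both whole-embryo arrays and far below the SOX10+ arrays. The log2 fold change against whole embryos was 3.73 ± 0.24 (SE; adjusted p = 0.000494 by limma), and 3.63 with Cy3 alone, its reference signal being above background on 0 of the 4 arrays. It was 4.38 from the scanner's processed signals and 2.99 with median centring. Against SOX1+ cells it was 2.82 ± 0.24 (SE; adjusted p = 0.0013 by limma).

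The largest falls exceeded the largest rises. Z00064743-1 had levels of 0.41 and 0.44 in SOX10+ cells against 5.45 and 6.78 in whole embryos, and -0.07 and 0.18 in SOX1+ cells. Both sorted populations were low, and the whole-embryo arrays differed from each other by more than 2-fold. Its log2 fold change was -5.69 ± 0.49 (SE), 51.6-fold, with an adjusted p of 0.00126 by limma. It was -5.02 without whole-embryo replicate 2 and -6.36 without replicate 1, and -6.44 with a normexp offset of 0 and -6.85 from the scanner's processed signals. Z00023449-1 had levels of 0.49 and 0.43 in SOX10+ cells, 5.83 and 6.10 in whole embryos, and 0.53 and 1.25 in SOX1+ cells. Again the whole embryos were high and both sorted populations low. Its log2 fold change was -5.50 ± 0.30 (SE; adjusted p = 0.000303 by limma). Against SOX1+ cells neither of these probes was called, with log2 fold changes of 0.37 ± 0.48 and -0.43 ± 0.29 (SE).

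Podxl2 encodes endoglycan, a sialomucin of the CD34 family on the cell surface, and was higher in SOX10+ cells. Its probe (chr6:88842740-88842799, minus strand) lies near the 3′ end of the gene's range. The level was 1.94 and 1.91 in SOX10+ cells, 0.81 and 0.49 in whole embryos, and 1.43 and 1.23 in SOX1+ cells, so that SOX1+ cells stood between. SOX10+ cells exceeded whole embryos by a log2 fold change of 1.28 ± 0.19 (SE; adjusted p = 0.00754 by limma). With median centring it was 0.70 (adjusted p = 0.052 by limma), and the call was lost.

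H2ac18 encodes a core histone H2A, from a cluster of histone genes whose copies are nearly identical, so its signal cannot be ascribed to this copy with certainty. The whole match is 35 of the probe's 60 bases, at chr3:96245512-96245546 on the plus strand, close to the gene's first base. The rest of the probe was not matched. The level was 2.33 and 2.83 in SOX10+ cells, 1.42 and 1.38 in whole embryos, and 2.14 and 1.81 in SOX1+ cells. Both sorted populations were above the whole embryos. Between SOX10+ cells and whole embryos the log2 fold change was 1.18 ± 0.17 (SE; adjusted p = 0.00773 by limma). It was 0.94 without SOX10+ replicate 2 and 0.62 with median centring, and under both settings it fell short of the call. The call was also lost in an unmoderated analysis of variance with the SOX10+ arrays as separate samples (adjusted p = 0.0618 by that analysis of variance).

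Bcl11a encodes a zinc-finger repressor best known from the fetal globin switch and from developing neurons, and was lower in SOX10+ cells. Its probe (chr11:24172868-24172927, plus strand) lies near the 3′ end of the gene's range. The level was -1.13 and -1.29 in SOX10+ cells, -0.14 and -0.07 in whole embryos, and -1.23 and -1.05 in SOX1+ cells. Sorted cells of both kinds were thus low and did not overlap the whole embryos. The log2 fold change was -1.11 ± 0.15 (SE; adjusted p = 0.00574 by limma). From the scanner's own processed signals it was -1.76, with an adjusted p of 0.0607 by limma, and the call was lost.

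Plet1, which encodes a surface protein of placental and other epithelia, fell by the most among the named genes. Its probe matched chr9:50505002-50505055 on the plus strand over 54 bases, near the 3′ end of the gene's range. The level was -1.41 and -1.19 in SOX10+ cells and 1.71 and 1.14 in whole embryos. In SOX1+ cells it was -1.74 and -2.32, where the probe was not well above background. Both sorted populations were low, and both whole-embryo arrays were high. The log2 fold change was -2.72 ± 0.31 (SE), 6.61-fold, with an adjusted p of 0.00319 by limma. From the scanner's own processed signals it was -3.68, with an adjusted p of 0.0524 by limma, and the call was lost. Against SOX1+ cells none of the 4 named genes was called, with log2 fold changes of 0.59 ± 0.19 for Podxl2, 0.61 ± 0.17 for H2ac18, -0.07 ± 0.15 for Bcl11a and 0.73 ± 0.31 for Plet1 (SE).

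**Figure D2:**
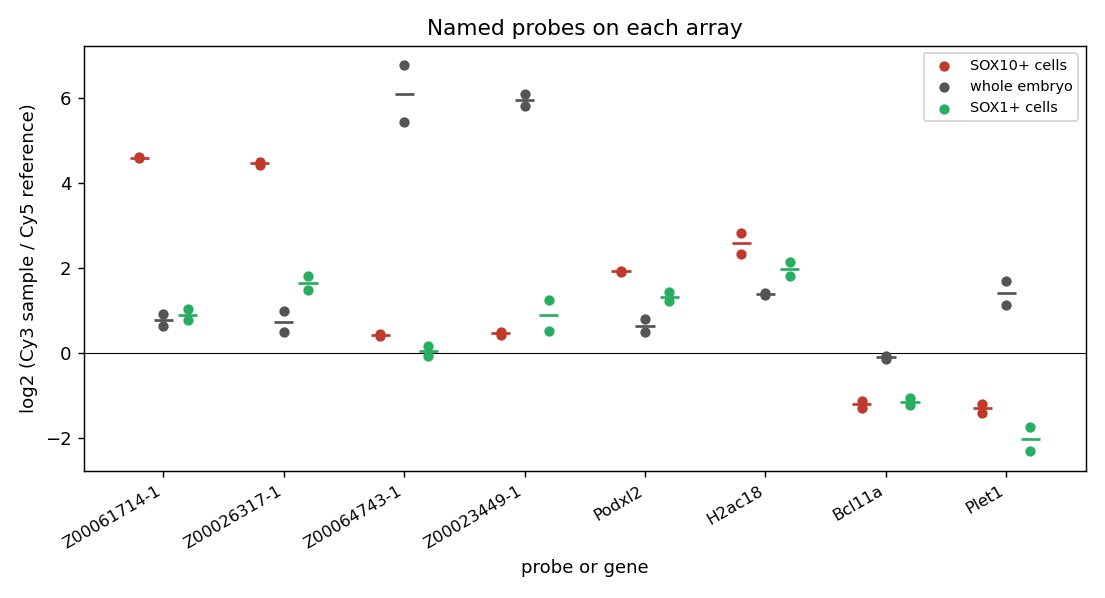
Log2 ratio of sample (Cy3) over reference (Cy5) on each array for the 4 unnamed probes with the largest changes and the 4 called probes with a gene name, with a dot per array and a bar at the mean of 2 arrays. SOX10+ cells stand alone at Z00061714-1 (4.59 and 4.62), while at both strongly lower probes, Bcl11a and Plet1 the SOX1+ cells lie with the SOX10+ cells, away from the whole embryos.

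Few of the named probes were called. Of the 166 tested named probes, 1.2% were higher and 1.2% lower, beside 2.17% and 5.35% of all tested probes. A further 14 named probes had an adjusted p between 0.0137 and 0.0463 by limma without passing 2-fold, and they were singled out after their values were seen. At that threshold, whatever the fold, 6.63% of the named probes were higher and 4.22% lower, beside 8.21 and 11.5% of all tested probes. None of the 14 changed sign with median centring. The 9 that were higher had log2 fold changes of 0.55 to 0.84. They were Rpl38 with 2 probes, a protein of the large ribosomal subunit, Snu13, a protein of the spliceosome and of small nucleolar particles, Slc25a5, an ADP/ATP carrier of mitochondria, and Prdx1, a peroxidase, together with Stard13, Aurkc, Rnf224 and the long noncoding Gm36449. The 5 that were lower, at -0.69 to -0.98, were Marchf5, a ubiquitin ligase of the mitochondrial outer membrane, Adck1, Cfap410, Plscr5 and the long noncoding 1700067G17Rik. Rpl38, Snu13, Slc25a5 and Prdx1 are genes of which processed copies exist elsewhere in the genome, so their probes may also read those.

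Of 831 genes on 26 lists for NC cells, neural tube, other embryonic tissues and housekeeping functions, 5 had a named probe, 4 of these were tested, and 0 were called, where 2.17% of all tested probes were higher and 5.35% lower, so that the count says nothing of the lists. Pax7, a paired-box factor of the dorsal neural tube and early NC cells, had levels of 1.66 and 1.70 in SOX10+ cells, 1.33 and 1.34 in whole embryos, and 1.66 and 1.28 in SOX1+ cells. Its SOX10+ arrays lay above both whole-embryo arrays, and 1 SOX1+ array did so too. The log2 fold change was 0.34 ± 0.19 (SE), with an adjusted p of 0.239 by limma. Acta2, the smooth muscle actin, was dim, with Cy3 signals of 102 and 159 in SOX10+ cells and 157 and 155 in whole embryos. The negative control had a mean Cy3 of 62.4 to 80, and the Acta2 reference was well above background on 2 of these 4 arrays. At so low a signal a small change does not show equal expression. Its levels were 0.22 and 0.36 in SOX10+ cells and 0.28 and 0.17 in whole embryos. Those arrays overlapped, with a log2 fold change of 0.06 ± 0.14 (SE; adjusted p = 0.776 by limma). Rpl10a, of the large ribosomal subunit, had a log2 fold change of 0.32 ± 0.15 (SE; adjusted p = 0.172 by limma), against 0.84 ± 0.18 and 0.79 ± 0.16 (SE) for the 2 probes of Rpl38. Those 2 probes overlap, at chr11:114668538-114668597 and chr11:114668526-114668585, and are not separate readings of the gene. With median centring the signs of Pax7, Acta2 and Rpl10a turned, to -0.12, -0.10 and -0.08, and those of Rpl38 did not, at 0.48 and 0.28. Hspa1a, a heat shock protein, was not well above background on any of the 6 arrays and was not tested.

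A gene read by 1 probe may hide disagreement between probes. For Prdx1 the 2 probes had opposite signs, at 0.63 ± 0.16 (SE; adjusted p = 0.0422 by limma) and -0.53 ± 0.22 (SE; adjusted p = 0.141 by limma). The second did not pass the threshold, so a fall was not shown. Their matches of 40 and 41 bases lie apart in the gene's range, and whether both read the same transcript is not known. The 90 further tested probes that were placed on the genome without a gene name held 1 higher and 2 lower calls, where 2.17 and 5.35% of all tested probes were called, and the 3 are given for their positions alone. The higher one lay at chr8:20649115-20649174 (plus strand; log2 fold change 1.99 ± 0.25, SE; adjusted p = 0.00491 by limma). The lower ones lay at chr13:70655908-70655967 (plus strand; -2.24 ± 0.18, SE; adjusted p = 0.00105 by limma), opposite the gene Gm36377, and at chr9:96364627-96364681 (minus strand; -1.38 ± 0.32, SE; adjusted p = 0.0324 by limma).

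Most lower probes were still measured in SOX10+ cells. Of the 1446 lower probes, 1198 were well above background on both SOX10+ arrays, 72 on 1 and 176 on neither. For those 176 only a bound is given, and it applies to normalised Cy3 alone, not to the ratio of both dyes. It was set by the lowest Cy3 signal among probes well above background or the probe's own signal where this was higher. The bound was at least 2-fold for 168 of them and at least 3-fold for 83, with a median of at least 2.96-fold. Of the 587 higher probes, 512 were well above background on both whole-embryo arrays, 30 on 1 and 45 on neither, and among these 45 the bound was at least 2-fold for 39 and at least 2.71-fold at the median.

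The largest bound belonged to a probe that was bright in SOX10+ cells alone. Its Cy3 signal was 3340 and 3390 on the SOX10+ arrays, 104 and 112 on the whole-embryo arrays, and 84.7 and 94.9 on the SOX1+ arrays. The means of these unnormalised signals were 31.2-fold apart, and the normalised, background-corrected levels of Cy3 alone, by which probes dim in 1 group are bounded here, were 52.1-fold apart. Its reference signal in Cy5 was also high on the SOX10+ arrays, at 368 and 345. It was 62.2 and 61.2 on the whole-embryo arrays and 62.1 and 60.5 on the SOX1+ arrays. For SOX10+ cells against whole embryos the ratio of both dyes gave 12.6-fold (adjusted p = 0.000254 by limma). The same reference RNA was on each array, and the part of this Cy5 difference in the result was not tested.

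After loess and Aquantile normalisation the reference differed little between the slides over all tested probes. These steps make the arrays more alike, so the values below do not measure the difference between slides before normalisation. Between SOX10+ and whole-embryo arrays, 85 tested probes were past 2-fold in Cy5 alone and 2407 in Cy3 alone, and the median absolute differences were 0.07 and 0.30 on the log2 scale. Among the calls, 11 of 587 higher and 35 of 1446 lower probes were past 2-fold in Cy5, beside 85 of all 27048 tested probes. Such reference differences were thus more frequent among the calls than among the tested probes, and their part in the calls was not tested. The median Cy5 difference was 0.06 at the higher and -0.02 at the lower probes.

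At the median, SOX1+ cells lay near SOX10+ cells at the lower probes and near whole embryos at the higher probes, but single probes varied. At the 1446 lower probes the median level was 1.05 in whole embryos, -0.37 in SOX1+ cells and -0.61 in SOX10+ cells. At the 587 higher probes it was 0.15 in whole embryos, 0.24 in SOX1+ cells and 1.57 in SOX10+ cells. Among the higher probes, the SOX1+ mean lay between the other 2 groups at 367, beyond SOX10+ cells at 46 and beyond whole embryos at 174. Among the lower probes it lay between them at 630, beyond SOX10+ cells at 616 and beyond whole embryos at 200. The probes were chosen on the SOX10+ and whole-embryo arrays, so these medians and counts are a description.

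**Figure D3:**
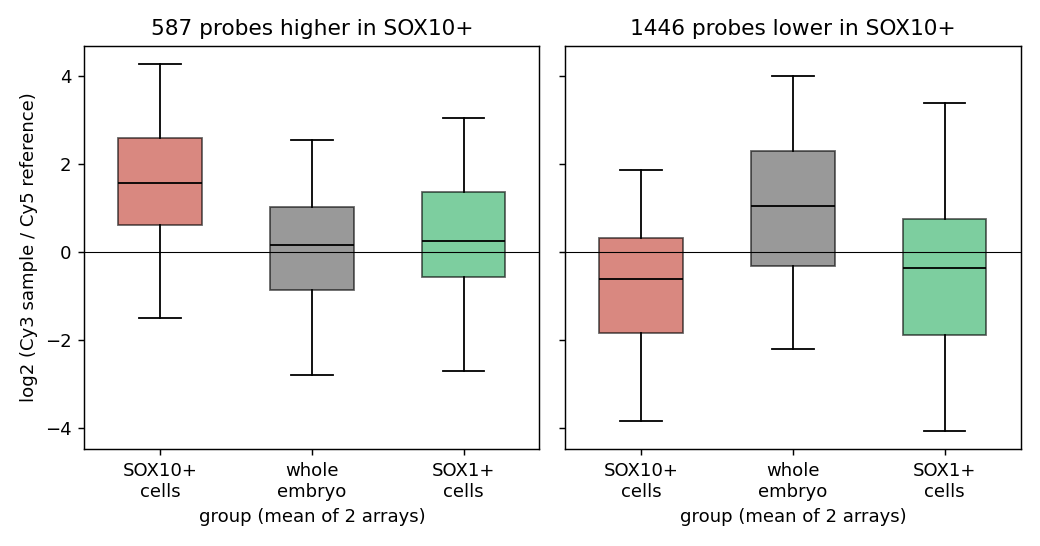
Log2 ratio of sample (Cy3) over reference (Cy5), as the mean of 2 arrays, over the 587 higher (left) and 1446 lower probes (right) in each group, with boxes from the lower to the upper quartile, a line at the median and whiskers at the 5th and 95th percentiles. SOX1+ cells have a median of 0.24 on the left, near the 0.15 of whole embryos, and of -0.37 on the right, near the -0.61 of SOX10+ cells.

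Some falls rested on whole-embryo arrays that differed from each other. At 72 of the 1446 lower probes the whole-embryo arrays were more than 2-fold apart, with replicate 2 the higher at 69 and replicate 1 at 3. Over all tested probes 143 were that far apart, 128 of them higher in replicate 2. Of these 128, 53.9% were lower in SOX10+ cells, beside 5.35% of all tested probes, and both numbers rest on the same whole-embryo arrays. What differed between the whole-embryo samples was not tested.

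Calls were most frequent at intermediate signal. Dividing the tested probes into 5 equal groups by mean log2 Cy3 signal, 0.647, 2.61, 3.27, 2.9 and 1.42% were higher from the dimmest to the brightest group, and 1.28, 6.01, 8.8, 7.08 and 3.57% were lower. The sequences of the probes differed as well. From the lowest GC content (16.7 to 36.7%) to the highest (55 to 86.7%), the share of lower probes went from 6.55 to 2.84% and that of higher probes from 2.02 to 2.45%. Within the second dimmest group of signal the lowest GC group held 11.5% lower probes and the highest 2.17%, and within the brightest group they held 2.46 and 2.88%. GC content and signal were linked, the median log2 Cy3 being 9.65 in the lowest and 8.28 in the highest GC group, and the part of either in the calls was not tested.

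**Figure D4:**
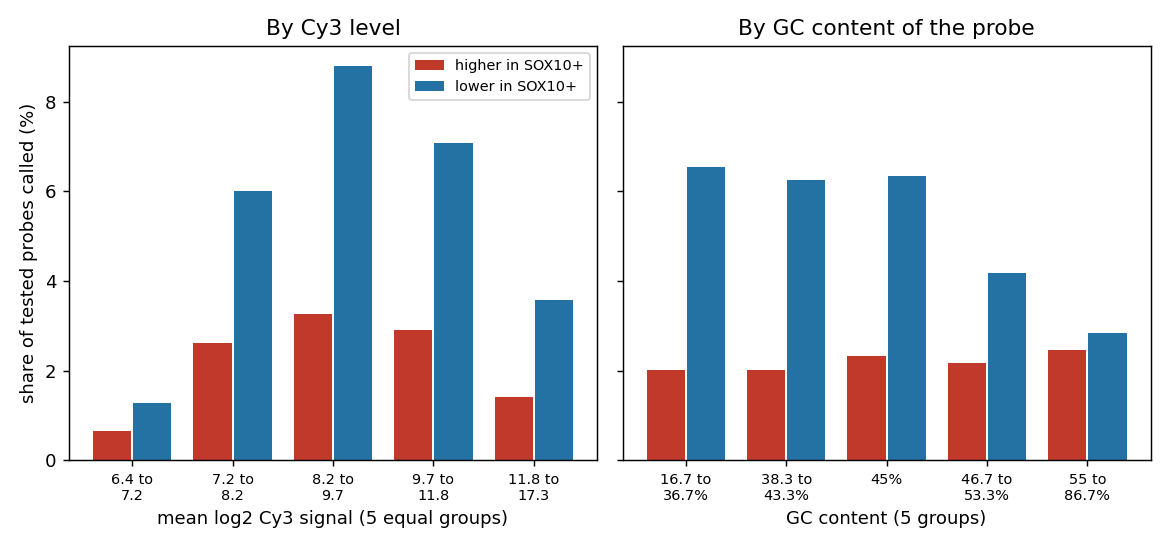
Share of tested probes (y axis, percent) called higher (red) or lower (blue) in SOX10+ cells, in 5 equal groups by mean log2 Cy3 signal (left) and 5 groups by GC content of the probe (right). Calls in both directions peak in the middle of the signal range, at 3.27 and 8.8%, and the share of lower probes is smallest, 2.84%, in the group richest in GC.

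Motifs were searched on the strand of the probe only, as plain runs of letters that may overlap each other. AATAAA was in 7.92% of the tested probes, of which 3.31% were higher and 7.84% lower, beside 2.07 and 5.13% of the probes without it. Probes with AATAAA were brighter, with a median log2 Cy3 of 10.6 against 8.81. In the middle group of signal 13.1% of probes with AATAAA and 8.52% of those without it were lower, and in the brightest group 3.17 and 3.64%. ATTTA, the core of AU-rich elements, was in 7.07% of tested probes, of which 1.36% were higher and 6.48% lower, beside 2.23 and 5.26% without it. ATTAAA, a less used form of the polyadenylation hexamer, was in 3.36% of tested probes, of which 2.09% were higher and 5.4% lower, beside 2.17 and 5.34% without it. A run of these letters is a description of the probe and shows no use of it in the cell.

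Overlapping probes allowed one transcript to be read more than once. Of the tested probes, 1224 formed 690 pairs that shared at least 30 bases in a run on the same strand, 15 of them with identical sequence. The log2 fold changes of a pair differed by a median of 0.07, with a Pearson r of 0.963 over the pairs, which share probes, arrays and base composition. Of 64 pairs with a call, 49 had both probes called, 18 of them higher and 31 lower, and in all 64 pairs both probes had the same sign. The pairs with the largest changes, by the smaller change of the pair, among those with both probes called and above background on all 4 arrays are shown with their shared run in capitals, since both probes of a pair read the same stretch.
higher set, probe 1: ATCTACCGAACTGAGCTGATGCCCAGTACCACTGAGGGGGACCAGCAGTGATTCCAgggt
higher set, probe 2: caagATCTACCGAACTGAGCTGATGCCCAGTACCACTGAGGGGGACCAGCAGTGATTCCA
lower set, probe 1: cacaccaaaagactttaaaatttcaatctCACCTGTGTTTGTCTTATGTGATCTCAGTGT
lower set, probe 2: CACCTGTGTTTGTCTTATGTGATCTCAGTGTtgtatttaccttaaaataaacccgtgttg

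The probes of the higher set share 56 bases. The first had levels of 4.19 and 4.05 in SOX10+ cells, 0.71 and 0.42 in whole embryos, and 0.94 and 0.75 in SOX1+ cells. The second had 3.93 and 3.93 in SOX10+ cells, 0.74 and 0.57 in whole embryos, and 0.93 and 0.93 in SOX1+ cells. SOX10+ cells were high on both arrays by both probes, and SOX1+ cells were near the whole embryos. The log2 fold changes were 3.55 ± 0.18 and 3.27 ± 0.15 (SE; adjusted p of 0.000265 and 0.000254 by limma), 4.31 and 2.94 from the scanner's processed signals, and 2.80 and 2.56 with median centring.

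The probes of the lower set share 31 bases. The first had levels of -1.08 and -1.08 in SOX10+ cells, 2.65 and 2.52 in whole embryos, and -1.52 and -1.09 in SOX1+ cells. The second had -0.66 and -0.63 in SOX10+ cells, 2.95 and 2.87 in whole embryos, and -1.52 and -0.83 in SOX1+ cells. Both probes were low in both sorted populations. The log2 fold changes were -3.67 ± 0.20 and -3.56 ± 0.27 (SE; adjusted p of 0.000314 and 0.000881 by limma), and -4.55 and -4.38 with median centring. Pairs on opposite strands were few, with 30 tested and 1 call among them.

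**Figure D5:**
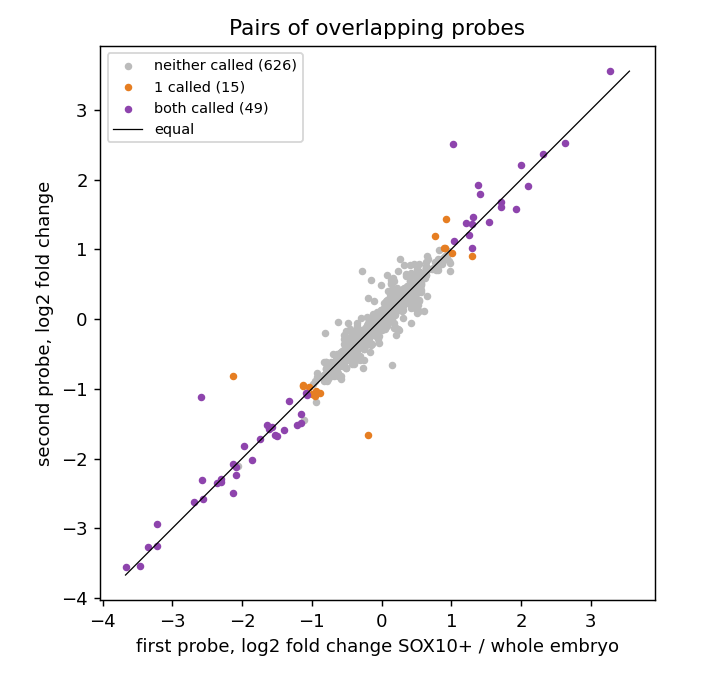
Log2 fold change of SOX10+ cells over whole embryos for the second probe of a pair (y axis) against the first (x axis), for the 690 pairs of tested probes that share at least 30 bases, with the line of equal change. Of the 49 pairs with both probes called (purple), 47 lie within 2-fold of the line and 2 lie farther off, by up to 1.47 on the log2 scale, and no pair with a call has probes of opposite sign.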

How the data were processed

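Arrays of E9.5 SOX10+ cells, SOX1+ cells and whole embryos (2 each) were used. The authors scanned 2-colour Agilent arrays with Agilent Feature Extraction (version not given in the sources used here) and deposited the mean and background intensity of each spot in both dyes, and a table of log10 values per spot, which equals log10 Cy3 minus log10 Cy5 plus the mean log10 Cy5 (largest departure 0.000157). The members, lists and tests were chosen with earlier results of these data known.

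From the deposited intensities, 42034 spots other than controls were read, 44 outlier spots were left out, the background was corrected by normexp (offset 50), ratios were normalised by loess within arrays with controls at weight 0, and spots of a probe were averaged, giving log2 ratios of 41968 probes. limma 3.58.1 (R 4.3.3) was fitted to all 6 arrays, with the SOX10+ arrays averaged to 1 sample (2 residual degrees of freedom, 4.34 prior), and adjusted by Benjamini-Hochberg over the 27048 tested probes. Nothing says that arrays of a group came from separate litters, so limma's p-values measure only the spread between these samples, which may be technical, and the few arrays limit the precision. With 1 SOX10+ sample in the main fit, that spread came from the duplicates of whole embryo and of SOX1+ cells alone. No spread of SOX10+ cells entered its standard errors or p-values, and it was taken to equal that of the other groups. No probe was saturated in Cy3, and 60.2 to 66.6% of probes were well above background in Cy3. The fit was tested on simulated data.

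The plan to name probes through transcripts or proteins could not be followed with the tables at hand; matches of at least 30 bases to promoter windows of RefSeq replaced it. Named were the first 2 probes by size in each direction, called probes with a gene name, and list members; of Tfap2b, Snai1, Pax3 and Pax6, as of the other markers, no probe was named. Alternatives were another offset, other normalisations, the authors' table, other filters and thresholds, a replicate block, an unmoderated analysis of variance, and leaving out each array. Further tables were made with Python 3.11.15.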

Additional observations from a re-analysis of the deposited data

Results flagged for a closer look

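Z00061714-1 and Z00026317-1 differed between the sorted populations as well as from whole embryos. SOX10+ cells exceeded SOX1+ cells by 3.70 on the log2 scale at the first and by 2.82 at the second, and both differences passed the threshold by limma.

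Among the control spots, which enter no comparison above, the positive control eQC-39 differed between slides in the processed signals. Its log2 ratio of Cy3 over Cy5 in the scanner's processed signals was 1.12 and 1.15 for whole embryos, and SOX10+ cells reached 2.30 and 2.37 where SOX1+ cells reached 2.10 and 1.85, with a mean difference of 1.20 between SOX10+ cells and whole embryos. In the unprocessed mean signals, background included, the difference was 0.18: Cy3 was 688 and 554 and Cy5 315 and 261 for whole embryos, and Cy3 was 629 and 549 and Cy5 275 and 212 for SOX10+ cells. The negative control had a mean Cy3 of 62.4 to 80. The cause was not tested.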

How the results depend on the processing

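Slide, strain and handling cannot be told apart from group, and few probes have a gene name. The count of higher probes was 587, and it was 282 with median centring, 177 at 3-fold and 2220 with no fold threshold. The count of lower probes was 1446, and it was 2801, 625 and 3108 under the same settings. These thresholds act by construction; the cause of the shift under median centring was not tested. Leaving out 1 array gave 476 to 649 higher and 1427 to 1488 lower probes. Under the other settings both counts stayed within 1.5 times. The Cy3 channel alone, whose normalisation also uses Cy5, kept 531 of the 587 higher and 1326 of the 1446 lower probes and turned 1. The scanner's processed signals gave 804 higher and 1832 lower probes but kept only 418 of the 587 and 1120 of the 1446. Similar counts thus did not mean the same probes. The authors' table, which holds fewer probes and rests on those processed signals, kept 307 and 855. Equal replicate numbers were not taken as pairs, since the deviations of same-numbered SOX10+ and whole-embryo arrays had a correlation of 0.14. With a replicate block and the SOX10+ arrays as separate samples, 604 probes were higher and 1517 lower. No list member was called with loess or with median centring (0 and 0). The direction of the 8 called probes described one by one held under the settings tried; Bcl11a, Plet1, Podxl2 and H2ac18 lost their call under some, and 1 probe of Rpl38 became a call, at 1.03, with the scanner's processed signals and in the authors' table, while its other probe, at 1.04 with the processed signals, missed the adjusted p (0.0502 by limma). The mean of the 2 overlapping Rpl38 probes was 0.82. Dim signal limits the 176 lower and 45 higher probes that have only a bound.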
